A study of Mus musculus with 28 samples.

Results

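Fast transmitter release rests on a small set of proteins that fuse synaptic vesicles with the presynaptic membrane. Described here are 8 genes of this machinery, out of the 41549 genes in the deposited tables: the vesicle SNAREs Vamp1 and Vamp2, the calcium sensors Syt1 and Syt2, the complexins Cplx1 and Cplx2, and the plasma membrane SNAREs Snap25 and Stx1a. They were picked by name, as isoforms of fast vesicle release set beside their general counterparts. Results of these data were known when they were picked, among them the lower Vamp1 in g4 HA-positive nuclei and the higher Syt2 in HA-positive nuclei of the empty hemisphere. Values of the 8 genes from these 2 comparisons are therefore given as a description, without a p-value. Calls counted there are part of that description and are not used as a test.

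The tissue was motor cortex of 7 mice (animals 17 to 23), from which nuclei were isolated and sorted. Each mouse received AAV-Cas9-miR-124-empty in the left and AAV-Cas9-miR-124-g4 in the right motor cortex, both adeno-associated virus (AAV) vectors for the nuclease Cas9 that are named for the neuronal microRNA miR-124. Vector and hemisphere thus coincided in every animal and cannot be told apart, and the meaning of g4, the promoter that drives Cas9 and the strain, sex and age of the mice are not in the labels. Tissue was fixed with 1% PFA, and stained nuclei were sorted by an HA tag, the HA-positive fraction being the one the labels call Cas9 positive. Both fractions of both hemispheres gave 4 groups of 7 libraries, 1 per animal, made from small amounts of RNA, so a library is a pool of many nuclei of mixed types, and every animal carried Cas9 vector on both sides.

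Vesicle fusion is driven by a SNARE complex in which a synaptobrevin of the vesicle (VAMP1 or VAMP2) zips together with syntaxin-1A and SNAP-25 of the plasma membrane. Synaptotagmins sense the incoming calcium and trigger fusion, and complexins clamp the partly assembled complex and speed the final step. VAMP2, SYT1 and CPLX2 are widespread in forebrain neurons, whereas VAMP1, SYT2 and CPLX1 are known from fast-firing neurons, such as parvalbumin interneurons of the cortex and many neurons of brainstem and spinal cord.

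Of the 8 genes, 6 were matched to RefSeq promoter windows (GRCm38.p6), which run from 250 bases before to 50 bases after an annotated start. The windows of the 3 genes that stood highest in HA-positive over HA-negative nuclei are printed for Vamp1 (chr6:125215331-125215630, plus strand), Syt2 (chr1:134646362-134646661, plus strand, the first of its 2 windows) and Cplx1 (chr5:108549978-108550277, minus strand), with Syt1 (chr10:109010926-109011225, minus strand, 1 of its 2 windows) as a counterpart that differed little between groups. Capitals mark the GC box, GGGCGG or CCGCCC on either strand.
Vamp1: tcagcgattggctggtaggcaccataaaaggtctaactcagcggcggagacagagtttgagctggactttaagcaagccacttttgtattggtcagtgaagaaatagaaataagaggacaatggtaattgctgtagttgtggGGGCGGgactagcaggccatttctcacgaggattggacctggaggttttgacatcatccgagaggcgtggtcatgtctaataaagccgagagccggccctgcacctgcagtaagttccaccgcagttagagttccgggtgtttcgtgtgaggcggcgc
Syt2: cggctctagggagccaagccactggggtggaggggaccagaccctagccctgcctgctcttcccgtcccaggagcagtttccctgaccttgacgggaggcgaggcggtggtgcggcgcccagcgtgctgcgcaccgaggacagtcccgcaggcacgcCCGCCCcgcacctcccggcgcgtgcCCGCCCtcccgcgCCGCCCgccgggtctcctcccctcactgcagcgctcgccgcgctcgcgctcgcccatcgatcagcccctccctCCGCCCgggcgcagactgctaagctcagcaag
Cplx1: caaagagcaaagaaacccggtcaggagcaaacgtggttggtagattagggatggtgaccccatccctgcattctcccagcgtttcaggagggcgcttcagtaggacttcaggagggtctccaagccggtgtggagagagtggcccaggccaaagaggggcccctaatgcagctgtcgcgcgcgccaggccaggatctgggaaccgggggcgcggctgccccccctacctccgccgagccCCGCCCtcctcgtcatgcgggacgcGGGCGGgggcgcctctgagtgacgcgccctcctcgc
Syt1: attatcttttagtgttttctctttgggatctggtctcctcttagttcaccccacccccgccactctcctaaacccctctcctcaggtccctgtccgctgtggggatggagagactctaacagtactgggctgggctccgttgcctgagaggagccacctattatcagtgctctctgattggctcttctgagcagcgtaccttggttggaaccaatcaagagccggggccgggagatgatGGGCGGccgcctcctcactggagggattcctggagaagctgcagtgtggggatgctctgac
The Syt2 window was the richest of these in G and C (74.3%), with 34 CpG dinucleotides and 4 GC boxes. The Cplx1 window had 67.0% and 24 CpG dinucleotides with 2 GC boxes, the Vamp1 window 51.7% and 14 with 1, and the Syt1 window 56.7% and 8 with 1. Over all 32851 windows of that length the median was 52.7% G and C with 7 CpG dinucleotides, and 35.7% held a GC box. CCAAT, searched on both strands, was found 3 times in the Vamp1 window, 2 times in the Syt1 window and 0 times in those of Syt2 and Cplx1, against 37.4% of all windows with at least 1. TGACG, the core of the cAMP response element, was found 2 times in the Cplx1 window and 1 time in the Syt2 window and lies in 20.8% of all windows. The other Syt2 window had 68.3% G and C, 28 CpG dinucleotides, 2 GC boxes, 1 CCAAT and 0 TGACG. The other Syt1 window had 44.0% G and C, 6 CpG dinucleotides and 0 of each of these 3 motifs. Stx1a, which also differed little between groups, had a window with 66.3% G and C, 19 CpG dinucleotides, 3 GC boxes, 0 CCAAT and 1 TGACG. The Cplx2 window had 53.3% G and C, 9 CpG dinucleotides and 0 of each motif. These are letter matches, and their use in these nuclei was not measured.

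Because the vectors are named for miR-124, its 7-base target sites (GTGCCTT and TGCCTTA) were looked for on the sense strand, in the longest 3' UTR that the annotation lists per gene. Each of the 8 genes had 0 such sites, in UTRs of 1196 bases (Stx1a) to 5468 bases (Syt2). Of 21014 genes with a 3' UTR, 19.7% held at least 1.

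Libraries held 248612 to 902944 counts and 8687 to 13668 detected genes. In all, 4 HA-positive libraries detected fewer than 10000 genes (those of animals 17, 21 and 22 with the empty vector and of animal 18 with g4). The g4 HA-positive library of animal 19 stood apart. It held 591 counts of Xist together with 86 of Y-linked genes, where the other libraries with Xist had at most 24 Y-linked counts. The other libraries of animal 19 held 0 counts of Xist and 51, 97 and 121 of Y-linked genes. Its summed oligodendrocyte and microglia markers (1288 and 285 CPM) were the highest of the HA-positive libraries. This library is kept as animal 19 where animals are counted, and whether all its nuclei came from that animal was not tested. Levels are given as CPM, counts scaled to library size, with edgeR's TMM factors over the 28 libraries, and log2 fold changes ± standard error (SE) come from edgeR's quasi-likelihood fit of all tested genes in each comparison. The comparisons share libraries (for example, g4 HA-positive libraries enter both g4 against empty and HA-positive against HA-negative), so their values are set side by side and are not independent.

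Vamp1, Syt2 and Cplx1 were each 2.32 to 5.57 times more abundant in HA-positive than in HA-negative nuclei by group means, while Vamp2, Syt1, Snap25 and Stx1a differed by at most 1.25 times. Between the hemispheres, Vamp1 and Syt2 stood at 0.461 and 0.455 times their empty level in g4 HA-positive nuclei. In HA-negative nuclei 0 of the 8 genes passed the test between hemispheres, as did 0% of all genes tested. Cplx2 had its lowest mean in g4 HA-positive nuclei, where it fell below the HA-negative fraction of the same side. In these bulk libraries, fewer cells of a type and less RNA per cell cannot be told apart.

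**Figure D1:**
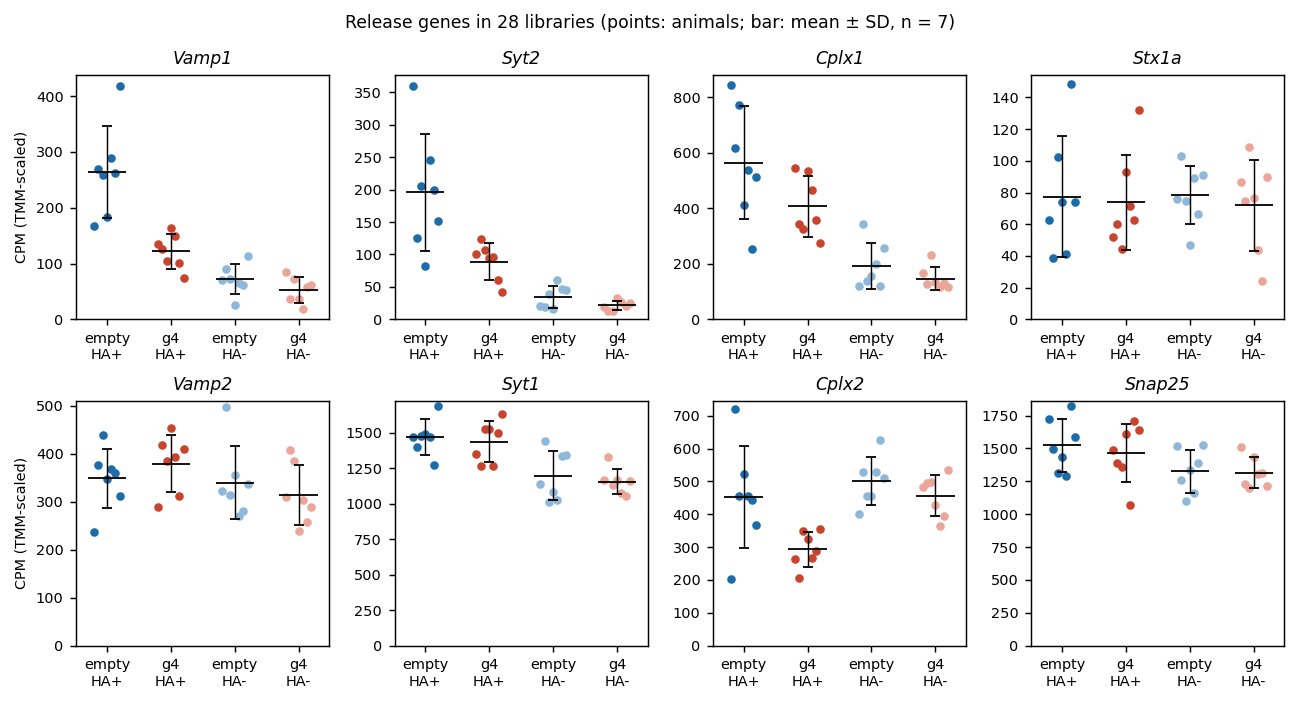
TMM-scaled CPM of the 8 genes (y axis, a separate scale for each gene, from 0) in the 4 groups of 7 libraries (x axis); points are animals and bars the mean ± SD. Vamp1, Syt2 and Cplx1 are highest in empty HA-positive nuclei and lowest in g4 HA-negative nuclei, and the ranges of Snap25 and Stx1a overlap in all groups.

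Vamp1, the synaptobrevin of fast synapses (chromosome 6, 125215551 to 125245964, GRCm38, plus strand), had 168 CPM in the lowest, 263 in the median and 419 in the highest empty HA-positive library. In g4 HA-positive nuclei these values were 73.4, 126 and 163 CPM. The highest g4 library was thus below the lowest empty one, and Vamp1 was lower on the g4 side in 7 of 7 animals. Group means were 264 ± 82.2 against 122 ± 31.2 CPM (SD, n = 7), a log2 fold change of -1.11 ± 0.20. The size of this difference was uneven among animals: on the log2 scale it ran from -2.51, in animal 23, to -0.16, in animal 20, with a median of -1.10. Without animal 23, which had the highest empty and the lowest g4 value, the log2 fold change was -0.88 ± 0.20, and without the g4 library of animal 19 it was -1.07 ± 0.21. With the 4 libraries under 10000 genes left out it was -1.18 ± 0.22.

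In HA-negative nuclei Vamp1 had 26.2, 71.3 and 114 CPM with the empty vector (lowest, median, highest) and 19.2, 57.1 and 84.6 CPM with g4. These ranges overlapped and Vamp1 was lower with g4 in 4 of 7 animals, with a log2 fold change of -0.47 ± 0.27 that did not pass edgeR's test (adjusted p 0.999). The g4 difference in HA-positive nuclei exceeded that in HA-negative nuclei by -0.63 ± 0.35 on the log2 scale, given here as a description since it contains the comparison in which Vamp1 was noticed. Between fractions, Vamp1 was higher in HA-positive than in HA-negative nuclei by 1.86 ± 0.23 with the empty vector, where the ranges did not overlap, and by 1.21 ± 0.24 with g4, where 6 of 7 HA-positive libraries lay above all HA-negative ones.

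**Figure D2:**
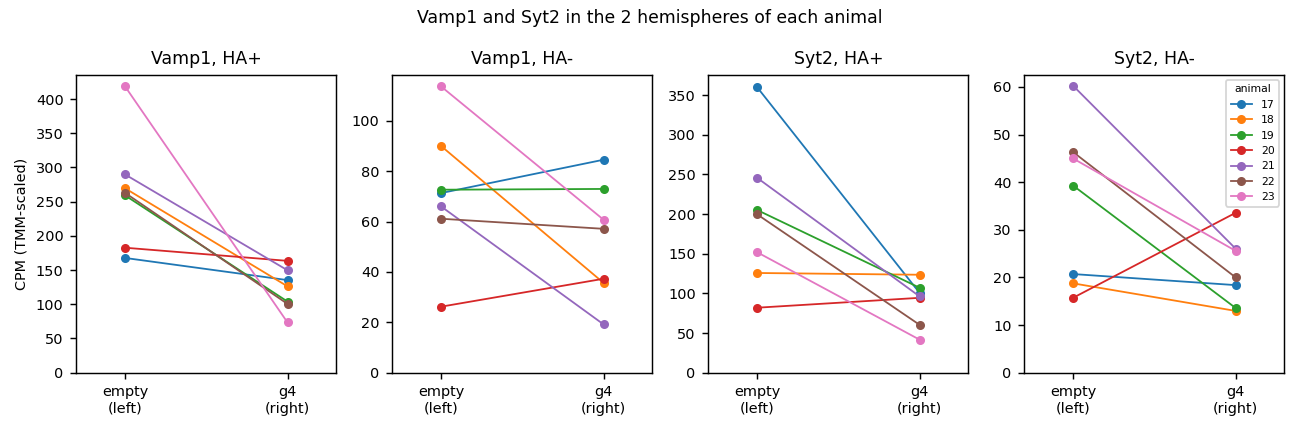
TMM-scaled CPM (y axis, from 0) of Vamp1 and Syt2 in the empty (left) and g4 (right) hemisphere (x axis), with 1 line per animal, in HA-positive and HA-negative nuclei. Vamp1 is lower at the g4 end of all 7 lines in HA-positive and of 4 of 7 in HA-negative nuclei, and Syt2 of 6 of 7 in both.

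Vamp2, the main synaptobrevin of forebrain synapses (chromosome 11, 69088490 to 69092384, plus strand), did not share this pattern. Its 4 medians lay between 303 and 393 CPM, and the 28 libraries between 238 and 497 CPM. The group means were 348 ± 62.1 CPM in empty and 379 ± 59.0 in g4 HA-positive nuclei, and 340 ± 75.6 in empty and 313 ± 62.6 in g4 HA-negative nuclei. Ordered by level, neighbouring groups did not differ beyond their SD. With g4 against empty the log2 fold change was 0.12 ± 0.15 in HA-positive and -0.13 ± 0.13 in HA-negative nuclei (adjusted p 0.999 by edgeR for the latter). HA-positive over HA-negative it was 0.04 ± 0.15 with the empty vector and 0.29 ± 0.13 with g4, the latter not passing edgeR's test (adjusted p 0.253).

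Syt2, the fast calcium sensor (chromosome 1, 134646677 to 134762593, plus strand), had the largest difference between the fractions among the 8 genes with both vectors. Empty HA-positive libraries had 81.9, 200 and 360 CPM (lowest, median, highest) and empty HA-negative ones 15.7, 39.3 and 60.2 CPM. On the g4 side the values were 41.6, 96.1 and 123 CPM in HA-positive and 13.0, 20.0 and 33.6 CPM in HA-negative nuclei. On neither side did the fractions overlap, and Syt2 was higher in HA-positive nuclei in 7 of 7 animals on both sides. The log2 fold change was 2.40 ± 0.31 with the empty vector, and 2.03 ± 0.27 with g4, where Syt2 rose by edgeR's test (adjusted p 4.76e-06). Syt2 was picked with the same contrast known from the empty hemisphere of these animals. The g4 value thus repeats that contrast in other libraries and is not independent support. HA-negative libraries held only 4 to 52 counts of Syt2 each, so its single values there are coarse.

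Between hemispheres, Syt2 averaged 196 ± 90.7 CPM in empty and 89.1 ± 28.3 CPM in g4 HA-positive nuclei, a log2 fold change of -1.11 ± 0.27. It was lower on the g4 side in 6 of 7 animals, and the ranges overlapped. Without the 4 HA-positive libraries under 10000 genes this value was -0.69 ± 0.26. In HA-negative nuclei the means were 35.1 ± 16.9 and 21.4 ± 7.42 CPM, again lower with g4 in 6 of 7 animals, and the log2 fold change of -0.73 ± 0.33 did not pass edgeR's test (adjusted p 0.999, unadjusted p 0.0307). Syt2 overlaps the gene Ppp1r12b on the opposite strand, without overlap of annotated exons, and the strand setting of the counting is not given in the sources used here. Ppp1r12b, a myosin phosphatase subunit, had 1103 counts over the 28 libraries against 1134 of Syt2. Its log2 fold changes were of the opposite sign to those of Syt2, at -0.82 ± 0.26 for HA-positive over HA-negative nuclei with the empty vector and -0.55 ± 0.22 with g4.

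Syt1, the general calcium sensor of forebrain synapses (chromosome 10, 108497650 to 109010982, minus strand), had medians of 1475 (empty) and 1500 CPM (g4) in HA-positive and 1141 (empty) and 1160 CPM (g4) in HA-negative nuclei. With g4 it rose in HA-positive over HA-negative nuclei by a small amount: 5 of 7 HA-positive libraries lay above all HA-negative ones, 6 of 7 animals were higher, and the log2 fold change was 0.32 ± 0.09 (adjusted p 0.026 by edgeR). That call was lost without animal 17, 19, 20, 22 or 23 (adjusted p 0.0524 to 0.121) or without the filter on low counts (adjusted p 0.0866), at log2 fold changes of 0.28 to 0.34. With the empty vector the log2 fold change was 0.30 ± 0.10. Between hemispheres Syt1 differed by -0.03 ± 0.11 in HA-positive nuclei, where the ratio of means was 0.979 under TMM and 1.02 with plain library totals, so its sign rests on the scaling. In HA-negative nuclei the difference was -0.06 ± 0.09 (adjusted p 0.999 by edgeR).

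**Figure D3:**
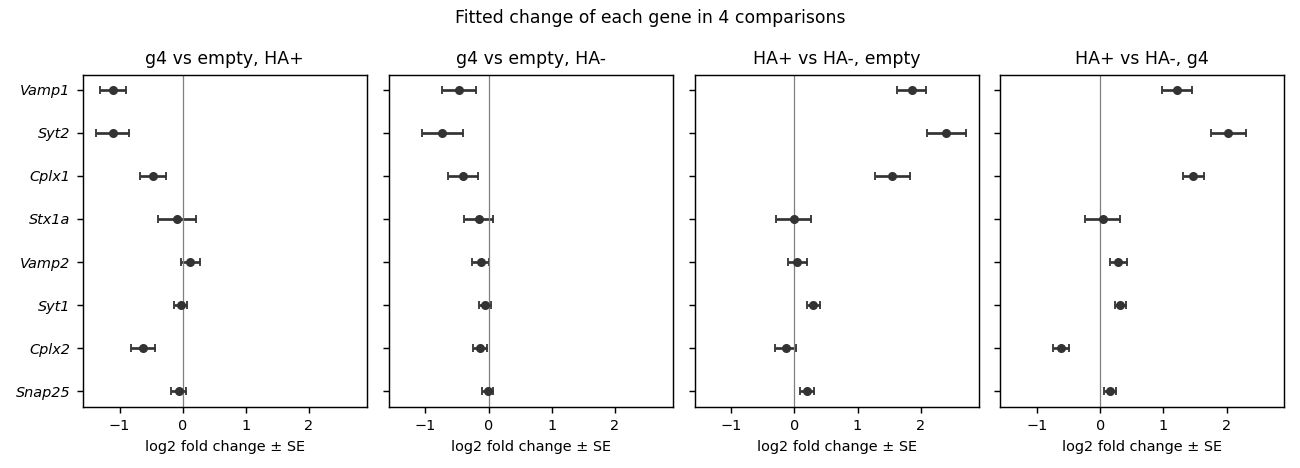
Log2 fold change ± SE (x axis) of each gene (y axis) in 4 comparisons, fitted by edgeR on 7 against 7 libraries; the vertical line marks no difference. Vamp1, Syt2 and Cplx1 lie above 1.2 in both comparisons of HA-positive with HA-negative nuclei, and Vamp1 and Syt2 near -1.1 for g4 over empty in HA-positive nuclei.

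Cplx1 (chromosome 5, 108518554 to 108550024, minus strand), a complexin known from inhibitory neurons in the cortex, followed Vamp1 and Syt2 between the fractions. On the g4 side it had 274, 357 and 547 CPM in HA-positive nuclei (lowest, median, highest) and 116, 133 and 231 CPM in HA-negative nuclei, with no overlap. It rose by a log2 fold change of 1.48 ± 0.17 (adjusted p 4.28e-07 by edgeR, higher in 7 of 7 animals). On the empty side the values were 253, 538 and 846 CPM against 120, 157 and 345 CPM, with 6 of 7 HA-positive libraries above all HA-negative ones and a log2 fold change of 1.55 ± 0.28. Between hemispheres its means were 564 ± 204 against 407 ± 108 CPM in HA-positive nuclei (log2 fold change -0.47 ± 0.21, lower with g4 in 5 of 7 animals) and 192 ± 83.6 against 147 ± 40.5 CPM in HA-negative nuclei (-0.40 ± 0.24, adjusted p 0.999 by edgeR). The hemispheres overlapped in both fractions.

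Cplx2 (chromosome 13, 54371349 to 54383917, plus strand), the complexin known from excitatory neurons, had 206, 289 and 355 CPM in g4 HA-positive and 364, 482 and 534 CPM in g4 HA-negative nuclei. All 7 HA-positive libraries lay below all HA-negative ones, and Cplx2 fell by 0.63 on the log2 scale (SE 0.13, adjusted p 0.00139 by edgeR, lower in 7 of 7 animals). On the empty side the fractions overlapped, at 203, 455 and 720 CPM against 400, 511 and 626 CPM, and the log2 fold change was -0.14 ± 0.17. Whether the 2 sides differ in this respect is the difference of g4 effects, which was -0.48 ± 0.22 for Cplx2 and was not called. In HA-positive nuclei Cplx2 was lower with g4 in 6 of 7 animals, with means of 452 ± 156 and 293 ± 53.7 CPM and a log2 fold change of -0.63 ± 0.18. Without animal 18, whose empty library had the highest value, it was -0.42 ± 0.18. In HA-negative nuclei it was -0.14 ± 0.11 (adjusted p 0.999 by edgeR).

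Of the plasma membrane SNAREs, Snap25 (chromosome 2, 136713453 to 136782428, plus strand) had means of 1525 ± 202 CPM in empty and 1467 ± 219 in g4 HA-positive nuclei, and 1327 ± 164 in empty and 1316 ± 117 in g4 HA-negative nuclei, where neighbouring levels did not differ beyond their SD. Its log2 fold change for HA-positive over HA-negative nuclei was 0.21 ± 0.11 with the empty vector, where it was higher in 7 of 7 animals with overlapping ranges, and 0.16 ± 0.10 with g4 (adjusted p 0.435 by edgeR). With g4 against empty it was -0.06 ± 0.12 in HA-positive nuclei, where the ratio of means was 0.962 under TMM and 1.00 with plain totals, and -0.02 ± 0.09 in HA-negative nuclei (adjusted p 0.999 by edgeR). Stx1a (chromosome 5, 135023482 to 135051100, plus strand), syntaxin-1A, had means of 72.0 to 78.3 CPM in the 4 groups and single libraries between 24.3 and 148 CPM. Its log2 fold changes lay between -0.15 and 0.04 in the 4 comparisons, each smaller than its SE of 0.23 to 0.30, and were not called (adjusted p 0.999 in HA-negative nuclei and 0.969 between fractions with g4, by edgeR).

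Levels of different genes were compared per kilobase of annotated exon, on the assumption, not checked here, that longer transcripts give more counts. All annotated exons of a gene were merged for this, at 10.2 kb for Vamp1 and 3.81 kb for Vamp2. Whether intronic reads were counted is not given in the sources used here. Per kilobase, in empty HA-positive nuclei, Vamp1 had 26.0 ± 8.08 CPM per kb (SD, n = 7) against 91.4 ± 16.3 for Vamp2, and Syt2 25.6 ± 11.9 against 176 ± 15.0 for Syt1. Without this scaling the means there were closer for Vamp1 and Vamp2 (264 and 348 CPM), and 196 and 1470 CPM for Syt2 and Syt1. By these means both fast isoforms were below their counterpart even in the group where they were highest. Cplx1 was the exception, with 258 ± 93.0 CPM per kb against 91.8 ± 31.6 for Cplx2 in that group. In empty HA-negative nuclei the pair stood at 87.5 ± 38.2 and 102 ± 14.7 CPM per kb.

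Within a library, the share of a pair's counts that comes from the fast isoform does not depend on how the library is scaled. Vamp1 made up 41.7% of Vamp1 and Vamp2 counts in the median empty HA-positive library (34.5 to 57.4%), 24.4% in g4 HA-positive (15.2 to 32.0%), 18.1% in empty HA-negative (6.85 to 25.2%) and 15.9% in g4 HA-negative libraries (5.96 to 21.5%). The lowest empty HA-positive share was above the highest in each other group. Syt2 made up a median of 12.2% of Syt1 and Syt2 counts in empty HA-positive libraries (5.19 to 19.6%), 6.54% in g4 HA-positive (2.48 to 8.89%), 3.24% in empty HA-negative (1.28 to 5.54%) and 1.86% in g4 HA-negative libraries (0.966 to 2.80%). The Cplx1 share of the complexin pair behaved differently between the hemispheres. It was 54.2% (36.3 to 80.7%) in empty and 62.2% (43.6 to 67.5%) in g4 HA-positive libraries, where the means of Cplx1 and Cplx2 were both lower with g4, and 25.6% (16.1 to 39.5%) and 24.2% (18.1 to 31.7%) in the HA-negative ones. Each pair had at least 116 counts in every library.

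**Figure D4:**
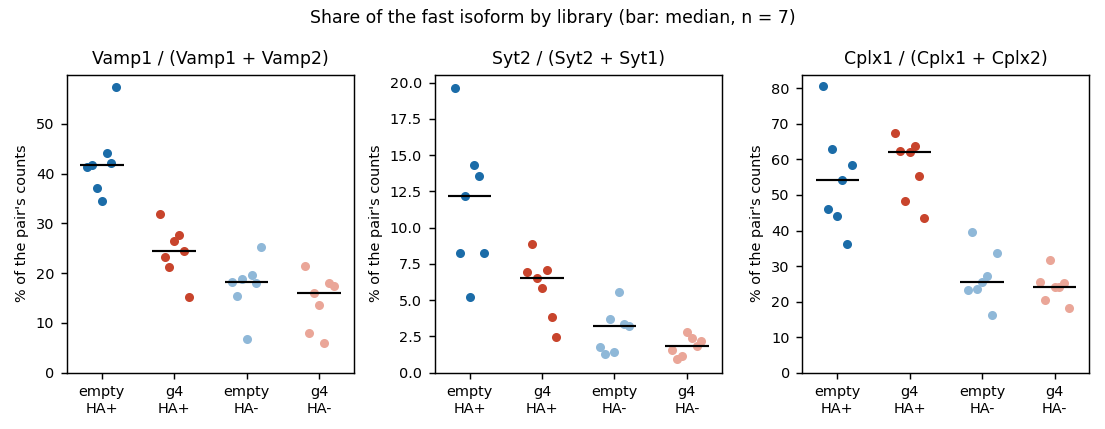
Share of a pair's counts from Vamp1, Syt2 or Cplx1 (y axis, percent, from 0) in each of 28 libraries by group (x axis); bars are medians of 7. The Vamp1 share is above 34% in all 7 empty HA-positive libraries and at most 32.0% in the others, while the Cplx1 share of the 2 HA-positive groups overlaps.

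Counted over the set, all 8 genes had enough counts to be tested in each comparison. On the g4 side, HA-positive against HA-negative, 4 of the 7 genes tested passed: Syt1, Syt2 and Cplx1 rose, when 3.32% of 6264 genes did, and Cplx2 fell, when 3.08% did. Syt2 was known from the same contrast on the empty side of these animals, so its pass is a repeat and not independent support. Vamp1 also met the threshold there. This is a description only, since its g4 HA-positive libraries are among those in which it was noticed. Groups did not overlap for 2 genes that were higher (1.07% of all genes) and 1 that was lower (0.782%). On the empty side Vamp1, Syt2 and Cplx1 met the threshold as higher (3.5% of 5538 genes did) and 2 of them did not overlap (1.32%), a description from which nothing is read since Syt2 was known there. With g4 against empty in HA-positive nuclei, 1 gene, Vamp1, met the threshold as lower (0.0399% of 5011 genes did, Vamp1 among them). Vamp1 was also the only one of the 8 without overlap (0.0998%). This is the observation that brought Vamp1 into the set, so it is not a test of it. In all, 0.0599% of genes met the threshold there in either direction. Vamp1 no longer met the threshold with the animal as a block (log2 fold change -1.08 ± 0.22, 0 of 8 genes), without animal 18, 19, 22 or 23, or without the 4 libraries under 10000 genes. Its log2 fold change was then -1.11, -1.07, -1.06 and -0.88 without these animals in turn, and -1.18 without the 4 libraries.

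In HA-negative nuclei, g4 against empty, 0 of the 8 genes passed edgeR's test, as did 0% of 6262 genes. At an unadjusted p under 0.05 there was 1 of the 8 (Syt2) and 236 of all genes, and DESeq2 called 0 and limma voom 0 of the 8. All 8 log2 fold changes were below 0, from -0.73 to -0.02, with a median of -0.15 against -0.004 over all genes. The hemispheres overlapped for all 8 there, when 0.0639% of all genes stood higher and 0.0319% lower without overlap. The difference of g4 effects between the fractions was called for 0 of the 8 genes and 0% of 7197 genes by edgeR. DESeq2 and limma voom also called 0 of the 8. At an unadjusted p under 0.05 by edgeR there was 1 of the 8 (Cplx2) and 359 of all genes. These counts are a description, since this comparison contains the one in which Vamp1 was noticed.

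Of 63 other genes of the release machinery, which cover further SNAREs, priming factors, synaptotagmins, vesicle and active zone proteins and vesicle retrieval, 52 were tested on the g4 side between fractions. Of these, 4 rose and 2 fell, when 3.32% of all genes rose and 3.08% fell, and the median log2 fold change was 0.07, against 0.006 over all genes. The rises were Rab3b (1.63 ± 0.25, adjusted p 4.6e-05) and Rab3c (0.46 ± 0.13, adjusted p 0.0297), small GTPases of the vesicle, Cadps (0.79 ± 0.14, adjusted p 0.000222), a priming factor, and Sv2a (0.53 ± 0.11, adjusted p 0.00179), a vesicle glycoprotein, all by edgeR. The falls were Sv2c (-1.19 ± 0.26, adjusted p 0.00355), another vesicle glycoprotein, and Syt5 (-0.90 ± 0.25, adjusted p 0.0242), a synaptotagmin. None of the 9 active zone genes, such as Bsn and Rims1, or the 7 retrieval genes, such as Dnm1, passed. With g4 against empty, 0 of 53 tested genes of this list were called in HA-negative nuclei by edgeR, DESeq2 or limma voom, with 0 at an unadjusted p under 0.05 (edgeR) and a median of 0.004. In HA-positive nuclei 0 of 50 were called by any of the 3 tools. By edgeR 3 of the 50 had an unadjusted p under 0.05, against 335 of all 5011 genes. Negative log2 fold changes were found for 33 of the 50, and the median of the 50 was -0.16 against -0.007 over all genes. On the empty side between fractions 6 of 51 met the threshold as higher and 3 as lower (3.5% of all genes in each direction).

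**Figure D5:**
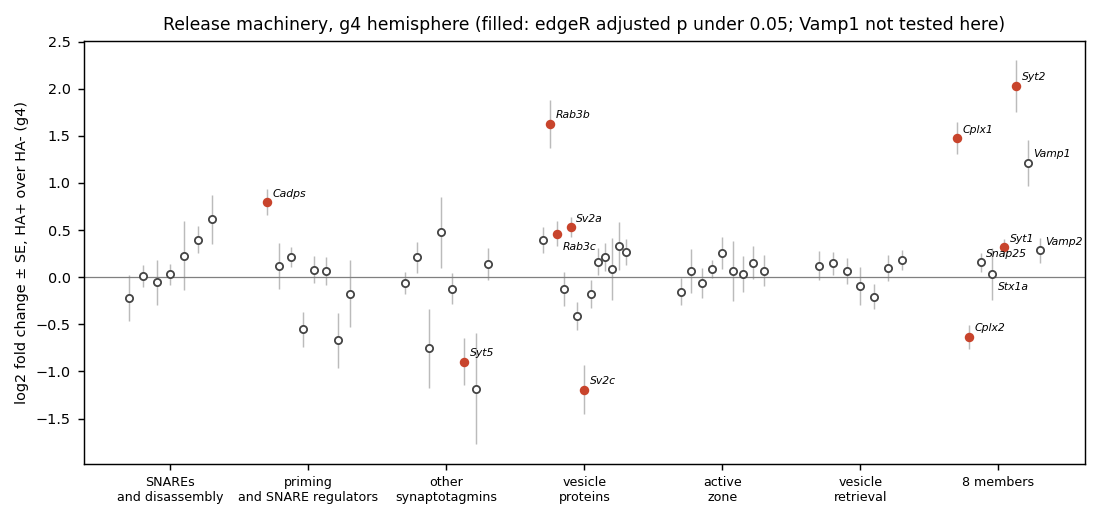
Log2 fold change ± SE of HA-positive over HA-negative nuclei in the g4 hemisphere (y axis) for 52 other release genes by list and for the 8 genes (x axis); filled points passed edgeR's test. Rab3b, Cplx1 and Syt2 stand highest among the filled points, and the active zone and retrieval genes lie near 0.

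Among the genes whose level followed Vamp1 most closely over the 28 libraries, of 5848 genes with a mean of at least 20 CPM, were Cplx1 (Spearman's rho 0.869), Btbd11 (0.848), Sptb (0.846) and the neuropeptide Npy (0.841). Syt2 ranked 8th (0.829), whereas Vamp2 ranked 912th (0.322) and Cplx2 had a rho of -0.199. For Syt2 they included Utrn (0.856), Man1c1 (0.851), the GABA-synthesizing enzyme Gad1 (0.847) and Abca5 (0.831), with Vamp1 in 6th place. These values are a description. Within the 14 HA-positive libraries they were smaller: rho with Vamp1 was 0.451 for Cplx1 and 0.323 to 0.609 for the other 3 genes named. There, rho with Syt2 was 0.411 for Utrn, 0.398 for Man1c1, 0.301 for Gad1 and 0.077 for Abca5. The libraries also share animals and differ in depth.

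Markers of cell types also differed between the fractions. Markers of inhibitory neurons summed to 2718 to 4012 CPM in empty and 1534 to 3147 CPM in g4 HA-positive libraries (medians 2858 and 2546). The lowest of these g4 sums is that of the animal 19 library that stood apart. In HA-negative libraries they summed to 870 to 1261 CPM in empty and 791 to 1213 CPM in g4 ones (medians 1121 and 1064), with 9 of 10 listed genes in the tables. Those of fast-spiking interneurons (6 of 6, Pvalb among them) summed to 980 to 1992, 915 to 1436, 338 to 637 and 425 to 516 CPM in the same order (medians 1389, 1278, 567 and 466). Pvalb itself, the calcium buffer parvalbumin, had means of 109 ± 43.3, 74.8 ± 35.1, 15.5 ± 12.2 and 15.0 ± 8.40 CPM. On the g4 side between fractions 6 of 8 tested inhibitory markers and 5 of 6 fast-spiking markers rose and 0 fell. Of 4 tested markers of other interneurons 0 fell and 2 rose, Sst (log2 fold change 2.10 ± 0.19) and Vip (1.33 ± 0.28). By contrast, 3 of 12 excitatory, 5 of 7 oligodendrocyte, 3 of 5 microglial and 5 of 6 striatal projection neuron markers fell and 0 rose (3.32% of all genes rose and 3.08% fell). The fractions thus differed in their cell type markers, and the part of these in the rises of Syt2, Cplx1 and Syt1 and the fall of Cplx2 was not tested.

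Between hemispheres in HA-positive nuclei, edgeR called 0 of 37 tested markers, DESeq2 called 1 (Gad2) and limma voom 0. At an unadjusted p under 0.05 by edgeR there were 8 of the 37, against 335 of all 5011 genes. Among inhibitory markers 7 of 8 and among fast-spiking markers 5 of 6 had negative log2 fold changes (medians -0.40 and -0.27), Gad2 among them at -0.66 ± 0.16, while 9 of 10 excitatory and 5 of 5 astrocyte markers had positive ones (medians 0.33 and 0.61). Excitatory markers (13 of 13) summed to 957 to 1902 CPM with the empty vector and 1534 to 2098 CPM with g4 (medians 1672 and 1744). Oligodendrocyte markers (8 of 8) summed to 52.0 to 124 CPM with the empty vector and 95.5 to 1288 CPM with g4 (medians 93.2 and 140). Microglial ones summed to 2.85 to 38.6 CPM, with Cx3cr1, P2ry12 and Gpr34 at 0, and 2.74 to 285 CPM (medians 14.2 and 21.9). The highest g4 sums of oligodendrocyte and microglial markers are those of the animal 19 library that stood apart. The part of all these markers in the lower Vamp1 and Syt2 of g4 HA-positive nuclei was not tested. In HA-negative nuclei striatal projection neuron markers reached 2203 CPM with the empty vector, in tissue labelled motor cortex. Empty HA-positive libraries had at most 221 CPM, with Adora2a at 0. On the g4 side the sums overlapped, at 121 to 548 CPM in HA-positive and 259 to 1671 CPM in HA-negative libraries. The 548 CPM is that of the animal 19 library that stood apart.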

How the data were processed

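Nuclear RNA was sequenced in 28 libraries. Per the labels, the authors deposited raw counts per gene in a table for each nuclear fraction, and the submitters' processing notes name GRCm38. The aligner, the counter and its strand setting, and any molecular identifiers: not given in the sources used here. Entries of NA were read as 0, 1 of 41550 entries names no gene and was left out, and 41474 gene identifiers matched GENCODE annotation, which gave coordinates and exon lengths. For 3 animals the number in the sample title is 1 lower than in the column name, and the descriptions tied columns to samples.

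Genes were filtered by group (filterByExpr) and tested in R 4.3.3 with edgeR 4.0.16 (TMM, robust quasi-likelihood fit, two-sided, Benjamini-Hochberg over all tested genes, threshold 0.05), in 5 comparisons. The SE is the log2 fold change divided by the square root of F. The procedure was tested on simulated data with a log2 fold change of 1 in either direction. Between hemispheres it called 39.8% of such genes in HA-positive and 63.2% in HA-negative nuclei. For the difference of g4 effects it called 16.5%, and between fractions 37.8% with the empty vector and 62.6% with g4. A gene that was not called may therefore still differ by such an amount where its SE is large, as for Syt2 in HA-negative nuclei. For Syt1, Snap25, Cplx2 and Vamp2 between hemispheres in HA-negative nuclei, the SE was small against a log2 fold change of 1. A difference of that size lies many SE from their estimates. Alternatives were DESeq2 1.42.0, limma 3.58.1 (voom), DESeq2's size factors, no filter, 1 model of all libraries, the animal as a block, other scalings, each animal left out, and libraries left out. The block is set by design, since both hemispheres and fractions come from the same animal. Deviations of same-animal libraries correlated at -0.06 to 0.05 (g4 against empty, HA-positive), -0.007 to 0.12 (HA-negative), -0.01 to 0.05 (fractions, empty) and -0.10 to 0.13 (fractions, g4).

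The 8 genes and the lists were chosen with earlier results of these data known. Other genes were named by rule: called release genes with the largest change (at most 4 in each direction) in the 2 tested comparisons, the 5 genes most like Vamp1 and Syt2 by Spearman's rho of log2(CPM + 1) (1 of each 5 is not reported here), and leading cell type markers.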

Additional observations from a re-analysis of the deposited data

Results flagged for a closer look

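In each of 32 sets of 7 libraries (8 genes in 4 groups) the highest and lowest values were compared with the others by Dixon's ratio, which chance exceeds in about 1 of 20 sets. In 3 sets there was a library that lay apart, all with the highest value and all in HA-negative nuclei. Vamp2 had 497 CPM in the empty HA-negative library of animal 18, where the next was 356.4 CPM. Syt1 had 1329 CPM in the g4 HA-negative library of animal 18, where the next was 1166 CPM. Cplx1 had 230.8 CPM in the g4 HA-negative library of animal 19, where the next was 165.5 CPM.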

How the results depend on the processing

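The number of the 8 genes called for g4 against empty in HA-positive nuclei, 1 as reported (Vamp1), was 2 with DESeq2 and 2 without the filter on low counts (Vamp1 and Syt2 in both), 0 with the animal as a replicate block, 0 without the 4 HA-positive libraries under 10000 genes, and 0 to 1 with 1 animal left out in turn. The block changed no other call of the 8 genes. In the 2 tested comparisons, 2 values that were not called changed sign with 1 animal left out: Snap25 for g4 against empty in HA-negative nuclei ranged from -0.044 to 0.044 (above 0 without animal 23), and Stx1a between fractions on the g4 side from -0.097 to 0.27 (below 0 without animal 20, 21, 22 or 23). In the comparisons given as a description, uncalled values also changed sign under some settings. For g4 against empty in HA-positive nuclei these were Stx1a (-0.29 to 0.21 over all settings), Syt1 (-0.07 to 0.02) and Snap25 (-0.10 to 0.03), and between fractions on the empty side Stx1a (-0.32 to 0.18), Vamp2 (-0.04 to 0.13) and Cplx2 (-0.28 to 0.04). For the difference of g4 effects they were Syt1, Syt2, Cplx1, Snap25 and Stx1a. The cause was not tested.

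Over all genes, the 3 called for g4 against empty in HA-positive nuclei became 11 with DESeq2, 28 without the filter, 1 with the block, 8 with 1 model of all 28 libraries, 1 without animal 18, 5 without the g4 library of animal 19 and 0 without the low libraries. In HA-negative nuclei DESeq2 called 1 against 0, and for the difference of effects the fit without the filter called 3 against 0. Between fractions, the 388 genes of the empty side became 661 without the filter, 612 with 1 model and 251 without animal 19, and the 401 of the g4 side became 218, 224 and 241 without animal 20, 21 or 22. Without the filter the median log2 fold change of all genes moved from -0.007 to 0.14 for g4 against empty in HA-positive nuclei and from 0.01 to -0.18 between fractions on the empty side. Library totals without ribosomal RNA and mitochondrial genes raised every level (Vamp1 in empty HA-positive nuclei to 376 CPM), with ratios between groups near those reported (0.470 against 0.461 for Vamp1, g4 over empty in HA-positive nuclei). Depth limits Syt2, Vamp1 and Stx1a most, with as few as 4, 10 and 15 counts in a library.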
